A study of Homo sapiens and Mus musculus with 47 samples.

Results

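The genes described here encode 10 subunits of TFIID, the factor that opens transcription by RNA polymerase II, namely TAF1, TAF2, TAF3, TAF4, TAF5, TAF6, TAF7, TAF8, TAF10 and TBP. They were chosen by gene symbol and make up 10 of the 57820 genes in the human count tables and, as the same symbols in title case, 10 of the 55401 genes in the mouse tables. The counts came from 35 libraries of a study that developed Chrom-seq, in which a chromatin reader domain brings the peroxidase APEX2 to a histone mark, APEX2 biotinylates nearby RNA, and streptavidin beads recover that RNA. Another 12 libraries, of Chrom-seq in HEK293T, were not analysed here.

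Chrom-seq with the TAF3 reader was compared with reader-free control libraries, 3 against 3, in HCT116 (human colorectal cancer), NIH3T3 (mouse embryonic fibroblast) and Neuro-2a (mouse neuroblastoma) cells. In both groups the GCN4 and APEX2 fusions were expressed for 48 hours, and the cells then received 500 µM biotin-aniline for 30 min and 1 mM H2O2 for 1 min. The control cells carried the GCN4 repeat and scFv-APEX2 without a reader domain. The reader plasmid was driven by the CMV promoter and the scFv-APEX2 plasmid by the chicken beta-actin promoter, and delivery was by transient transfection, so expression may vary from cell to cell. RNA-seq of HEK293T (human embryonic kidney) covered 3 control libraries, which the study describes as untreated cells, and 3 CBX7 libraries from cells transfected with the H3K27me3 reader CBX7. A second RNA-seq set in HEK293T covered antisense oligonucleotides (ASOs), with 3 libraries each for the negative control (NC) ASO and the ASOs to SETD5-AS1 and to LINC00662, and 2 libraries for the LINC00641 ASO. The 3 targets are long noncoding RNAs. The study calls the replicates of the CBX7 RNA-seq independent. For the other libraries used here no label states separate cultures, so their p-values measure the spread between these libraries, which may be technical.

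TFIID binds core promoters and recruits the polymerase and the other general factors. TBP bends the TATA box, TAF1 and TAF2 touch the promoter DNA downstream of it, and most other TAFs pair through histone folds to build the scaffold. Contacts with chromatin sit in TAF1, whose bromodomains bind acetylated histones, and in TAF3, whose PHD finger binds H3K4me3, the mark of active promoters. TAF7 binds TAF1 and restrains its acetyltransferase activity.

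Library totals ran from 10012172 to 17558305 counts for Chrom-seq and from 8258859 to 15330874 for RNA-seq. Mitochondrial genes took 2.86 to 14.1% of Chrom-seq counts and 2.18 to 3.48% of RNA-seq counts. The share moved with the groups in HCT116 (13.7 to 14.1% in controls, 11.7 to 13.1% with the reader), Neuro-2a (3.58 to 3.80% and 2.86 to 3.44%) and the CBX7 set (2.87 to 3.11% and 2.57 to 2.67%). In HCT116 and NIH3T3 the reader libraries also held more detected genes (22983 to 23342 against 22109 to 22579, and 22963 to 23862 against 20609 to 20988). The part of these shifts in the results was not tested. Defining markers went with the labels, with EPCAM at 318 to 357 CPM in HCT116, NEFM at 175 to 410 CPM in HEK293T, Col1a2 at 847 to 981 CPM in NIH3T3 and Hand2 at 206 to 324 CPM in Neuro-2a. CPM is a gene's counts scaled to a common library total, after TMM scaling within a table. Some intestinal markers did not single out HCT116, since VIL1 stayed at or below 0.638 CPM there and CDX2 was at 10.6 to 14.8 CPM against 26.0 to 65.9 CPM in HEK293T. TAF3 replicate 1 of Neuro-2a stood apart from its group in its counts over all genes. The ASO targets were at 8.52% (SETD5-AS1), 3.65% (LINC00641) and 12.4% (LINC00662) of their NC ASO level.

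TAF3 came first, because the reader itself is a piece of it: the PHD finger of mouse TAF3, residues 841 to 932. The native mouse bases that encode these residues, and the human bases that align with them, are shown because the reader's residues come from this stretch. Capitals mark bases that differ between the species or have no partner.
Taf3, mouse: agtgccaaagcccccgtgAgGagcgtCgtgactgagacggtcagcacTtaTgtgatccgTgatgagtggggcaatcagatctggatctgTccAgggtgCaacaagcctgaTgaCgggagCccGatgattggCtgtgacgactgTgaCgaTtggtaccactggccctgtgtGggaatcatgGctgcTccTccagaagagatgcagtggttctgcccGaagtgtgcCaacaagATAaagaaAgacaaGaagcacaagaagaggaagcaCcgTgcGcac
TAF3, human: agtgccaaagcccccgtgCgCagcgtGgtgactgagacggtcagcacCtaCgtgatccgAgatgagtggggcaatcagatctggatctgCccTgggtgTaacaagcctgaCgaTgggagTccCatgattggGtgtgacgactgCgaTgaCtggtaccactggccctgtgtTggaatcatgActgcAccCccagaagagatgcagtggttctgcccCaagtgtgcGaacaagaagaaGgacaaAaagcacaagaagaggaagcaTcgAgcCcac

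The mouse stretch lies on the minus strand of chromosome 2 (GRCm38) in exons 5, 6 and 7 of transcript Taf3-201, at chr2:9921052-9921105, chr2:9918103-9918209 and chr2:9916352-9916466. The human stretch lies on the plus strand of chromosome 10 (GRCh37) in exons 5, 6 and 7 of TAF3-201, at chr10:8051240-8051293, chr10:8055694-8055800 and chr10:8056600-8056711. Of the 276 mouse bases, 245 were identical to the human base, 28 differed and 3 had no partner, and the longest identical run was 29 bases. The stretch is 5.76% of the 4792 bases of the mouse transcript. These are the native gene's bases from GENCODE vM21 and GENCODE v44 lifted to GRCh37; the codons of the reader plasmid were not used here.

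In the mouse lines, counts assigned to Taf3 were far higher in the reader libraries. In NIH3T3 the control libraries held 134, 127 and 124 CPM of Taf3 and the reader libraries 7910, 8203 and 9099 CPM. Reads of the reader mRNA and of the cell's own Taf3 fall on one gene and are one number here, so the control libraries give the only reader-free level. The excess over the mean control level was 8276 ± 620 CPM (SD, n = 3), which was 98.4 to 98.6% of the Taf3 counts in those libraries. Taf3 took 0.801 to 0.94% of all counts there and ranked between 3 and 4 among all genes by count.

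The Neuro-2a table was scaled separately. Its controls held 175, 201 and 174 CPM and its reader libraries 1573, 1776 and 1854 CPM. The excess was 1551 ± 145 CPM (SD, n = 3), or 88.3 to 90.1% of Taf3 counts, and Taf3 ranked between 13 and 24 by count. The gap between the lines was tested as an interaction of reader and line over the 12 mouse libraries. The change of Taf3 counts, reader mRNA included, was smaller in Neuro-2a, with a log2 difference of -2.80 (Neuro-2a minus NIH3T3, SE 0.13, edgeR quasi-likelihood adjusted p = 1.13e-09).

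In HCT116, where the reader is a mouse sequence mapped to the human genome, the shift was small. TAF3 stood at 24.6, 22.7 and 25.3 CPM in the controls and at 32.9, 32.9 and 32.1 CPM with the reader, and the groups did not overlap. The log2 fold change was 0.43 (SE 0.09, edgeR adjusted p = 7.28e-05), an excess of 8.42 ± 0.473 CPM (SD, n = 3). How many of these reads came from the reader mRNA was not tested.

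**Figure D1:**
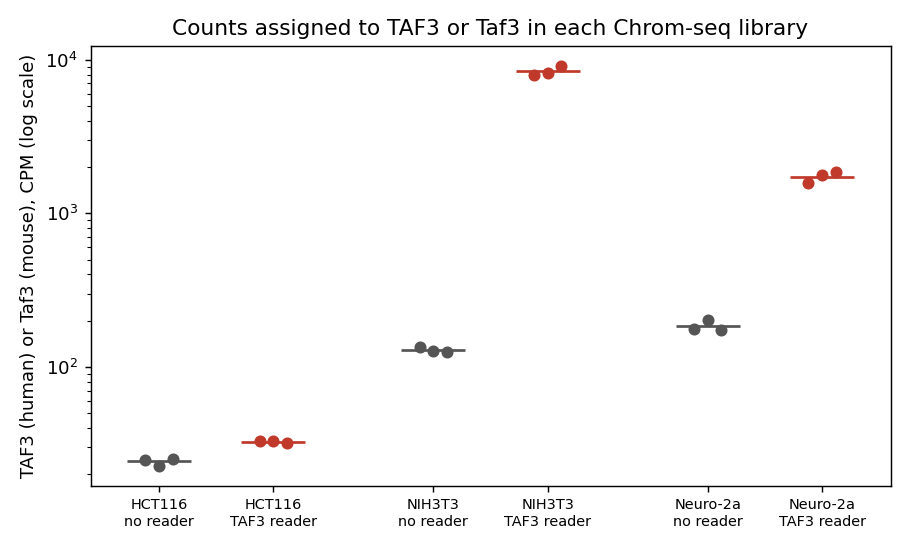
CPM (log scale) of counts assigned to TAF3 in HCT116 or Taf3 in NIH3T3 and Neuro-2a, for each Chrom-seq library without a reader (grey) and with the TAF3 reader (red); lines are group means. The red points lie near 33 CPM in HCT116, between 7910 and 9099 CPM in NIH3T3 and between 1573 and 1854 CPM in Neuro-2a, above the grey points in each line.

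The other 9 genes asked whether the mRNAs of TAF3's partner subunits were recovered differently at H3K4me3. A member was called when its adjusted p was under 0.05 and its log2 fold change reached 0.75, the values the study used for enriched RNAs, applied here in either direction. Besides Taf3 in the mouse lines, no member was called in any of the 3 lines. In HCT116, 4 of 10 members passed the adjusted p alone, 3 of them higher (TAF2, TAF3 and TAF5) and 1 lower (TAF8), and 0 were called. With TAF3, which may hold reads of the reader mRNA, removed before scaling, 3 of the 9 others passed. Of all 18731 genes tested in HCT116, 34.9% passed the adjusted p and 6.62% were called. Less RNA of a gene and fewer cells that express it cannot be told apart in such bulk libraries.

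TAF5, the WD40-repeat subunit at the core of the complex, was at 12.7, 11.1 and 11.7 CPM in HCT116 controls and at 14.9, 17.1 and 16.9 CPM with the reader. Its groups did not overlap, and the log2 fold change was 0.47 (SE 0.11, edgeR adjusted p = 0.00117). TAF5 overlaps USMG5 on the opposite strand, and mouse Taf5 overlaps Atp5md likewise, so their counts are uncertain in part. TAF8, a histone-fold subunit that pairs with TAF10, went the other way, from 39.8, 42.8 and 38.8 CPM to 32.5, 34.6 and 28.8 CPM (log2 fold change -0.34, SE 0.08, edgeR adjusted p = 0.00106). TAF2, which binds promoter DNA at the initiator, went from 128, 126 and 140 CPM to 152, 146 and 154 CPM (log2 fold change 0.21, SE 0.06, edgeR adjusted p = 0.00476). TAF7 was at 90.5, 87.2 and 84.7 CPM without the reader and at 83.7, 78.4 and 89.9 CPM with it, which overlap. The remaining 5 members, with log2 fold changes between -0.13 and 0.18, did not pass the test.

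In NIH3T3, 4 of 10 members passed the adjusted p against 23.6% of all 19220 genes tested, and 1, Taf3, was called against 11.1%. Taf3 counts include the transfected reader, so its pass and its call say nothing about the cell's own gene. With Taf3 removed before scaling, 3 of the 9 others passed the adjusted p. Taf5 was at 12.8, 14.2 and 14.3 CPM in the controls and at 20.7, 19.9 and 18.0 CPM with the reader (log2 fold change 0.51, SE 0.13, edgeR adjusted p = 0.00502). Taf7 was at 18.8, 20.9 and 19.8 CPM and at 27.5, 29.5 and 26.1 CPM (log2 fold change 0.48, SE 0.11, edgeR adjusted p = 0.00225). Both were higher in every reader library than in every control. Taf4, a histone-fold subunit that pairs with TAF12, was lower by a small amount, with controls at 80.5, 81.4 and 81.6 CPM and reader libraries at 72.4, 66.8 and 72.8 CPM. Its log2 fold change of -0.20 (SE 0.07, edgeR adjusted p = 0.0414) lost the adjusted p of 0.05 without NIH3T3 TAF3 replicate 2 (adjusted p = 0.168) and in 9 other alternatives. Mouse Taf7 overlaps 3 protein-coding genes on the opposite strand, and whether counting used strand is not given in the sources used here.

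In Neuro-2a, 1 of 10 members, Taf3, passed either threshold, against 1.24% of all 17006 genes for the adjusted p and 1.03% for the call. Its counts include the transfected reader, and with Taf3 removed before scaling 0 of the 9 others passed the adjusted p. Taf5 was at 19.3, 21.8 and 23.4 CPM in the controls and at 24.2, 31.1 and 33.0 CPM with the reader (log2 fold change 0.46, SE 0.16, edgeR adjusted p = 0.195). Taf7 was at 24.0, 19.9 and 26.9 CPM and at 25.1, 33.4 and 30.8 CPM (log2 fold change 0.34, SE 0.17, edgeR adjusted p = 0.34). In both genes the lowest reader value belonged to TAF3 replicate 1, the library that stood apart. Without it, Taf5 (log2 fold change 0.59, SE 0.13, edgeR adjusted p = 0.00103), Taf7 (0.45, SE 0.13, adjusted p = 0.0135) and Taf2 (0.21, SE 0.07, adjusted p = 0.0259) passed the adjusted p, as did 16.3% of all genes then tested.

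The interaction over both mouse lines found a difference between the lines in 1 of 10 members, Taf3, whose counts include the transfected reader. Of all 19509 genes, 3.38% passed the adjusted p and 3.05% were called. With Taf3 removed before scaling, 0 of the 9 others passed the adjusted p. For Taf5 the log2 difference between Neuro-2a and NIH3T3 was -0.06 (SE 0.21, edgeR adjusted p = 0.986) and for Taf7 it was -0.15 (SE 0.20, adjusted p = 0.837). The largest of the 9 others was Taf8 at 0.28 (SE 0.16, adjusted p = 0.451). Taking Taf3 out of the table before library sizes and scaling moved no other member's log2 fold change by more than 0.00112 in NIH3T3 and 6.57e-05 in Neuro-2a.

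**Figure D2:**
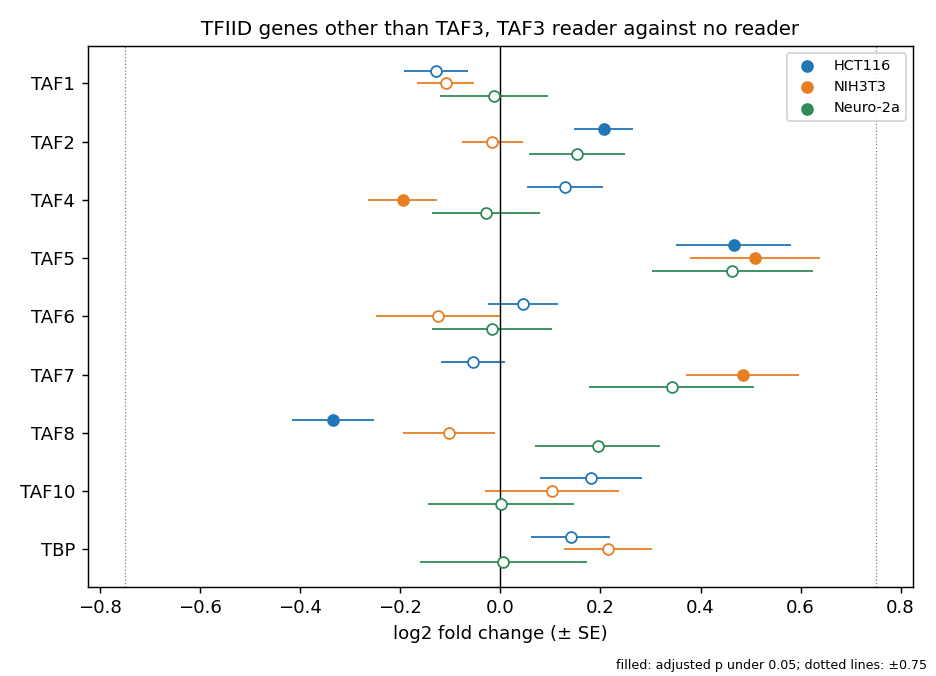
log2 fold change (± SE) of the 9 TFIID genes other than TAF3, TAF3 reader against no reader, in HCT116 (blue), NIH3T3 (orange) and Neuro-2a (green), 3 libraries a group; filled points passed an adjusted p of 0.05. TAF5 sits between 0.46 and 0.51 in the 3 lines, TAF7 is at 0.48 in NIH3T3 and at -0.06 in HCT116, and no point reaches the dotted lines at 0.75.

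RNA-seq of HEK293T compared cells transfected with the CBX7 reader with untreated cells, so the reader and the transfection cannot be told apart. The study takes this comparison to cover its other expressed components and biotin-aniline too, so the groups may also differ in these. Of 10 members, 2 passed the adjusted p, both higher, and 0 were called, against 29.2% and 7.66% of all 18204 genes tested. TAF2 was at 91.8, 108 and 99.3 CPM in the controls and at 119, 125 and 129 CPM with CBX7, without overlap (log2 fold change 0.32, SE 0.08, edgeR adjusted p = 0.00832). Without control replicate 1 its adjusted p was 0.0614. TAF3 was at 47.7, 40.3 and 57.7 CPM and at 61.9, 56.8 and 59.8 CPM, which overlap (log2 fold change 0.30, SE 0.11, edgeR adjusted p = 0.049), and it lost the adjusted p without any of 5 libraries (CBX7 replicate 1, 2 or 3, control replicate 1 or 2; adjusted p up to 0.155, and a log2 fold change of 0.19 without control replicate 2). TAF7 was at 136, 117 and 129 CPM and at 127, 132 and 126 CPM, a log2 fold change of 0.02 (SE 0.08, adjusted p = 0.89).

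The ASO libraries showed the widest movement of these genes. The LINC00662 ASOs and the negative control are shown because the study describes boosted TAF7 transcription after knockdown of LINC00662. In the counts used here TAF7 was lower with each targeting ASO than with the negative control. Capitals mark the longest run complementary to a TAF7 transcript.
LINC00662-ASO-1: tgtaGTCTCTTatctgcacc
LINC00662-ASO-2: actctgtctcaAATAACTtg
LINC00662-ASO-3: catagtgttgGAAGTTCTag
ASOXNC23, negative control: ttctccgaaCGTGTCAcgtt

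The labels do not say which of a target's ASOs a library received. LINC00662-ASO-1 is complementary to chr19:28284662-28284681 (GRCh37, transcript on the minus strand), exon 1 of LINC00662-216, and LINC00662-ASO-3 to chr19:28281738-28281757, exon 3 of LINC00662-206. LINC00662-ASO-2 spans the junction of exons 2 and 3 of that transcript. The longest complementary runs with TAF7 transcripts were 7, 7 and 8 of 20 bases for the 3 LINC00662 ASOs and 7 bases for the negative control. Runs of that length occurred in transcripts of 84.2, 85.3, 44.5 and 58.3%, respectively, of 19807 protein-coding genes. Over all 9 ASOs and the 10 members, the longest run was 13 bases, between LINC00662-ASO-2 and TAF8. A run is a description of letters, not of binding.

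Against the NC ASO, each targeting ASO went with lower TAF7, TBP, TAF8 and TAF10 and higher TAF1, and the genes differed among themselves in size. The 3 comparisons share the NC ASO libraries, so their values stand side by side and are not independent. Every NC ASO library also had a higher mitochondrial share (3.05 to 3.48% against 2.18 to 2.93%) and more detected genes (22441 to 22848 against 21776 to 22246) than every targeting library, and the part of this in the results was not tested. With the SETD5-AS1 ASO, 10 of 10 members passed the adjusted p, 2 higher and 8 lower, against 52.7% of all 18544 genes, and 3 were called, against 24.4%. With the LINC00641 ASO, 7 of 10 passed, 1 higher and 6 lower, against 49.7% of 18503 genes, and 3 were called, against 22.5%. With the LINC00662 ASO, 8 of 10 passed, 3 higher and 5 lower, against 54.4% of 18562 genes, and 1 was called, against 24.9%. The median log2 fold change of the members was -0.47, -0.43 and -0.18, where that of all genes was 0.03, 0.00424 and 0.00132. The share of members called was near or below that of all genes.

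TAF7 (chr5:140698057-140700330, hg19, minus strand) had the log2 fold change of largest size among the members with each ASO. With the LINC00641 ASO it was close to that of TAF3 (-1.13 and -1.01), and without LINC00641 ASO replicate 2 TAF3 was the larger (-1.27 and -1.32). The NC ASO libraries held 287, 296 and 292 CPM. The SETD5-AS1 ASO libraries held 122, 111 and 108 CPM, the LINC00641 ASO libraries 152 and 125 CPM, and the LINC00662 ASO libraries 138, 131 and 128 CPM. Every targeting library was below every NC ASO library. The log2 fold changes were -1.43 (SE 0.08, edgeR adjusted p = 1.64e-10), -1.13 (SE 0.09, adjusted p = 2.87e-09) and -1.15 (SE 0.06, adjusted p = 7.15e-14). By signed log2 fold change, TAF7 ranked 815 of 18544, 1618 of 18503 and 1736 of 18562 tested genes counted from the lowest.

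**Figure D3:**
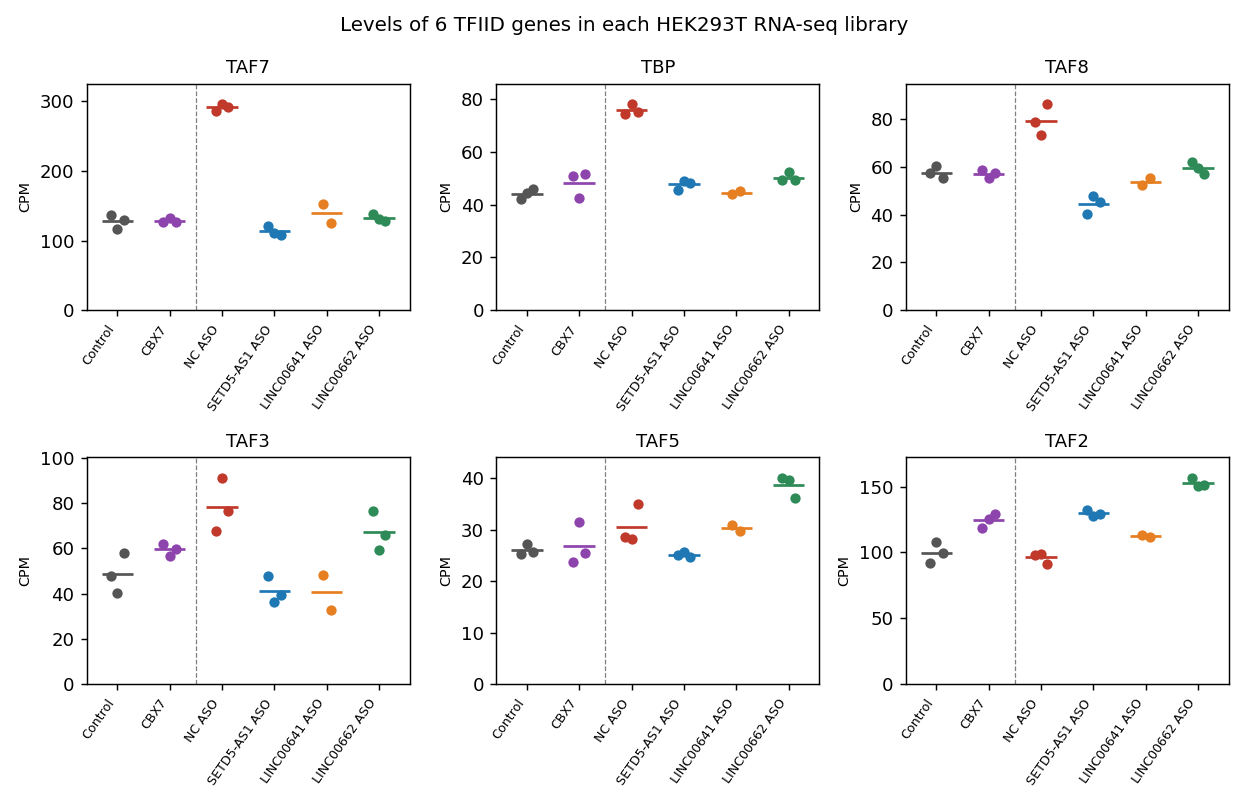
CPM of 6 TFIID genes in each HEK293T RNA-seq library, with group means as lines; the dashed line divides the CBX7 set (left) from the ASO set (right), which are separate tables. TAF7 is at 287 to 296 CPM with the NC ASO and at 108 to 152 CPM in the other groups of both sets.

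The next members are shared with other machines. TBP, which also serves RNA polymerases I and III, was at 74.5, 78.1 and 75.3 CPM with the NC ASO, at 45.8, 49.1 and 48.3 CPM with the SETD5-AS1 ASO, at 43.9 and 45.2 CPM with the LINC00641 ASO and at 49.4, 52.3 and 49.2 CPM with the LINC00662 ASO. The log2 fold changes were -0.74 (SE 0.08, edgeR adjusted p = 4.00e-07), -0.83 (SE 0.09, adjusted p = 1.77e-07) and -0.60 (SE 0.07, adjusted p = 1.32e-07). The first lay just short of the threshold of 0.75 and crossed it, at up to -0.76, in 5 of 13 alternatives. TAF10, a histone-fold subunit that also belongs to the SAGA coactivator, was at 20.2 to 23.2 CPM with the NC ASO. It was at 12.3 to 18.0 CPM over the 8 targeting libraries. Its log2 fold changes were -0.57, -0.54 and -0.54 (SE 0.11, 0.12 and 0.12, edgeR adjusted p at most 0.00107). TAF10 overlaps ILK on the opposite strand and a sense transcript, so its counts are uncertain in part.

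TAF8 and TAF3 were lower than with the NC ASO by amounts that differed between the ASOs. TAF8 was at 78.6, 73.1 and 86.2 CPM with the NC ASO, at 40.5, 47.7 and 45.2 CPM with the SETD5-AS1 ASO, at 52.5 and 55.1 CPM with the LINC00641 ASO and at 62.2, 59.6 and 56.8 CPM with the LINC00662 ASO. The log2 fold changes were -0.90 (SE 0.09, edgeR adjusted p = 2.11e-07), -0.62 (SE 0.09, adjusted p = 1.62e-05) and -0.42 (SE 0.08, adjusted p = 6.06e-05). TAF3 was at 67.5, 91.1 and 76.5 CPM with the NC ASO, at 47.7, 36.3 and 39.2 CPM with the SETD5-AS1 ASO, at 48.4 and 32.6 CPM with the LINC00641 ASO and at 76.5, 59.2 and 65.8 CPM with the LINC00662 ASO. Its log2 fold changes were -0.999 (SE 0.11, edgeR adjusted p = 8.90e-07) and -1.01 (SE 0.14, adjusted p = 3.70e-06) for the first 2 ASOs. With the LINC00662 ASO the value was -0.23 (SE 0.10, adjusted p = 0.0497), and the groups overlapped. Without NC ASO replicate 2 it was -0.11 (adjusted p = 0.322) and without LINC00662 ASO replicate 2 it was -0.14 (0.279). The adjusted p also exceeded 0.05 without NC ASO replicate 3 or LINC00662 ASO replicate 3. It did so too with DESeq2 (0.068), and in edgeR with library size alone (0.102). The replicate block (0.0751) and the 4 ASO groups in one fit (0.0548) likewise took it past 0.05.

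Of the promoter-contacting subunits, TBP was lower with each targeting ASO, TAF1 was higher with each and TAF2 was higher with 2 of the 3. TAF1, the largest subunit, was at 50.02, 53.9 and 58.0 CPM with the NC ASO, and at 62.8 to 85.8 CPM in the targeting libraries, above every NC ASO library. Its log2 fold changes were 0.34 (SE 0.08, edgeR adjusted p = 0.00234), 0.28 (SE 0.10, adjusted p = 0.0223) and 0.48 (SE 0.09, adjusted p = 3.56e-05). The LINC00641 ASO value lost the adjusted p with DESeq2 (0.059), and in edgeR without NC ASO replicate 1 (0.127) or with the replicate block (0.107). Without LINC00641 ASO replicate 2 the log2 fold change of TAF1 was 0.17. TAF2 was at 98.2, 99.03 and 91.5 CPM with the NC ASO, at 132, 128 and 129 CPM with the SETD5-AS1 ASO, at 113 and 112 CPM with the LINC00641 ASO and at 157, 150 and 151 CPM with the LINC00662 ASO. The log2 fold changes were 0.36 (SE 0.08, edgeR adjusted p = 0.00061), 0.16 (SE 0.08, adjusted p = 0.106) and 0.66 (SE 0.07, adjusted p = 6.01e-09).

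TAF4, TAF5 and TAF6 changed little or in opposite directions. TAF5 was at 28.5, 28.2 and 35.0 CPM with the NC ASO and at 25.0, 25.7 and 24.6 CPM with the SETD5-AS1 ASO (log2 fold change -0.35, SE 0.10, edgeR adjusted p = 0.00811). It was at 40.1, 39.7 and 36.2 CPM with the LINC00662 ASO (0.33, SE 0.10, adjusted p = 0.00457), and at 30.9 and 29.7 CPM with the LINC00641 ASO (-0.07, adjusted p = 0.625). TAF6, a histone-fold subunit that pairs with TAF9, overlaps AP4M1 and CNPY4 on the opposite strand. It was at 92.1, 88.0 and 88.8 CPM with the NC ASO and had log2 fold changes of -0.37 (edgeR adjusted p = 0.0016), -0.31 (adjusted p = 0.00525) and -0.14 (adjusted p = 0.1). The LINC00641 ASO value of TAF6 lost the adjusted p without LINC00641 ASO replicate 2 (0.0808). TAF4 was at 50.8, 45.6 and 47.0 CPM with the NC ASO and passed the adjusted p with the SETD5-AS1 ASO alone of the 3 (log2 fold change -0.28, edgeR adjusted p = 0.0111). TAF4 lost that adjusted p without NC ASO replicate 1 (0.061) or SETD5-AS1 ASO replicate 2 (0.0568). Scaling by library size alone moved the median of all genes in the SETD5-AS1 ASO comparison by 0.14. Under it TAF7 stood at -1.29, and TAF4 (adjusted p = 0.192) and TAF5 (0.0974) no longer passed.

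**Figure D4:**
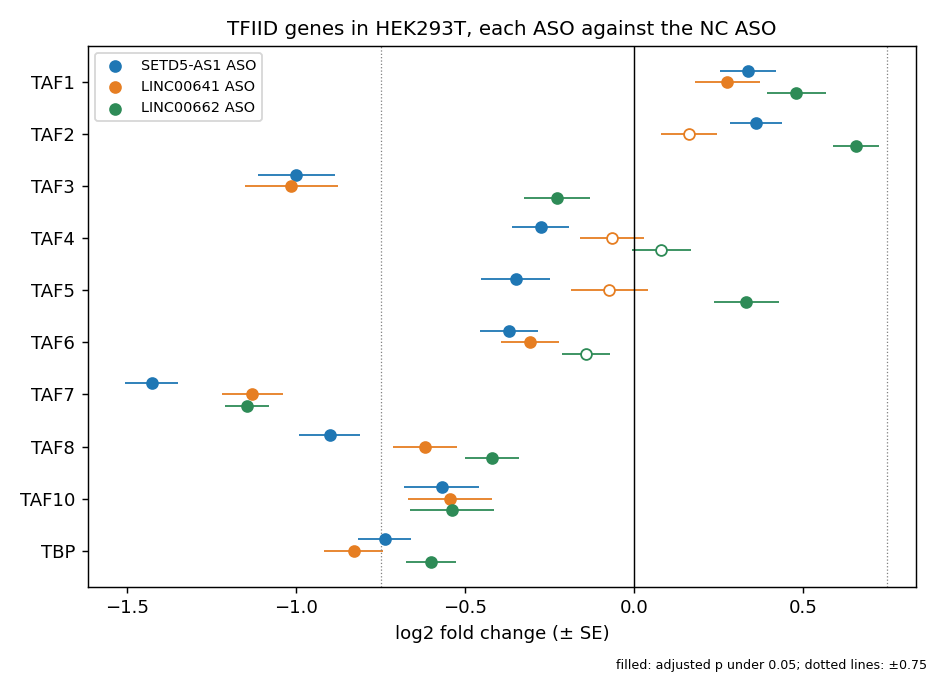
log2 fold change (± SE) of the 10 TFIID genes with each targeting ASO against the NC ASO in HEK293T (3 libraries a group, 2 for LINC00641); filled points passed an adjusted p of 0.05 and dotted lines mark 0.75. TAF7 lies between -1.43 and -1.13, TAF1 and TAF2 lie right of 0, and TAF3 is at -0.23 with the LINC00662 ASO and at -0.999 and -1.01 with the others.

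Comparing the targeting ASOs with each other leaves the NC ASO out. LINC00662 ASO against SETD5-AS1 ASO gave 6 of 10 members past the adjusted p, each higher with the LINC00662 ASO, against 32.3% of 18417 genes, and 0 called against 11.1%. TAF3 differed by a log2 fold change of 0.71 (SE 0.11, edgeR adjusted p = 4.84e-05), TAF5 by 0.62 (SE 0.09, adjusted p = 1.82e-05) and TAF8 by 0.42 (SE 0.08, adjusted p = 0.000611), with no overlap of libraries. TAF4 (0.30, adjusted p = 0.0162), TAF2 (0.24, adjusted p = 0.0104) and TAF7 (0.22, adjusted p = 0.0237) also passed. TAF4 lost the adjusted p without LINC00662 ASO replicate 1 (0.0946) or 3 (0.053) or SETD5-AS1 ASO replicate 2 (0.0695). TAF7 lost it without LINC00662 ASO replicate 1 (0.0971) or 2 (0.0588) or SETD5-AS1 ASO replicate 2 (0.0821), and with library size alone (0.06).

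LINC00662 ASO against LINC00641 ASO gave 3 of 10 past the adjusted p, again higher with the LINC00662 ASO, against 24.6% of 18363 genes, and 0 called against 8.41%. They were TAF3 (0.74, SE 0.13, edgeR adjusted p = 0.000299), TAF2 (0.44, SE 0.07, adjusted p = 7.74e-05) and TAF5 (0.35, SE 0.09, adjusted p = 0.00919). TAF3 lay just under the threshold of 0.75 in both of these comparisons. Against the LINC00641 ASO it ranged from 0.47 without LINC00641 ASO replicate 3 to 1.05 without LINC00641 ASO replicate 2, where 1 member was then called, and TAF5 lost the adjusted p without LINC00641 ASO replicate 3 (0.073). TAF7 differed by -0.07 (SE 0.08, adjusted p = 0.597).

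SETD5-AS1 ASO against LINC00641 ASO gave 0 of 10 past the adjusted p in edgeR, against 5.9% of 18337 genes, and 0 called, against 1.72%. At an unadjusted p under 0.05 there were 5 of 10, a threshold at which the share of all genes was not counted. TAF3 differed by 0.03 (SE 0.15) and TAF7 by -0.29 (SE 0.10, adjusted p = 0.0981). The TAF3 difference between these 2 ASOs was smaller than its standard error.

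**Figure D5:**
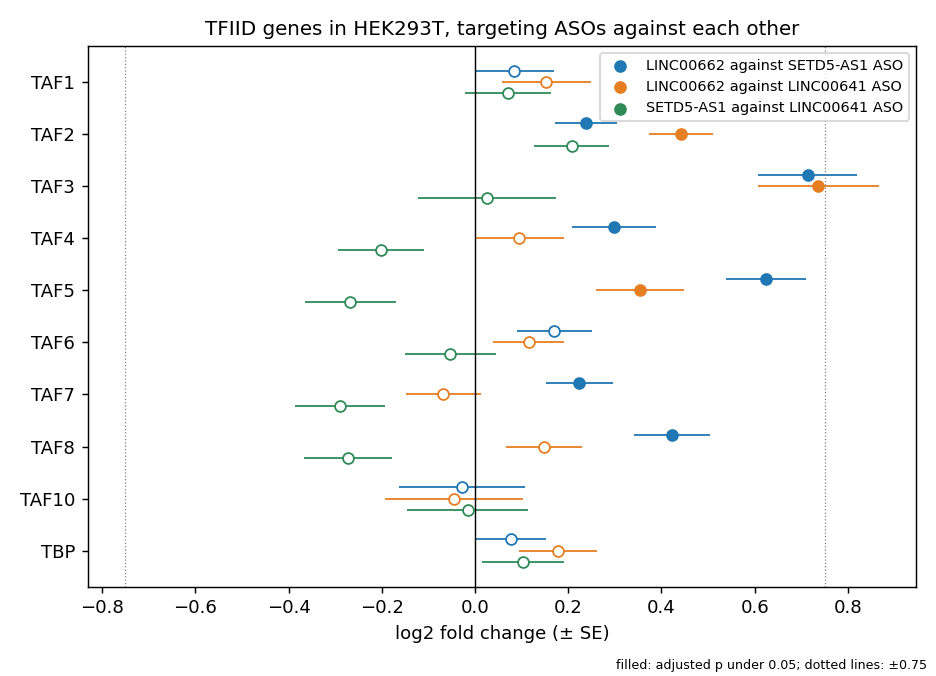
log2 fold change (± SE) of the 10 TFIID genes between targeting ASOs in HEK293T; filled points passed an adjusted p of 0.05 and dotted lines mark 0.75. TAF3 lies at 0.71 and 0.74 where the LINC00662 ASO is compared with the others and at 0.03 between the SETD5-AS1 and LINC00641 ASOs.

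HEK293T RNA-seq without any ASO gives another level for these genes, from a separately scaled table and with no test. TAF7 was at 117 to 136 CPM in those control libraries, against 287 to 296 CPM with the NC ASO and 108 to 152 CPM with the targeting ASOs. TBP was at 42.0 to 45.9 CPM there, against 74.5 to 78.1 CPM and 43.9 to 52.3 CPM. TAF8 was at 55.2 to 60.2 CPM and TAF10 at 12.7 to 18.2 CPM, again below the NC ASO libraries and overlapping the targeting ones. TAF3 and TAF5 were higher with the NC ASO (67.5 to 91.1 and 28.2 to 35.0 CPM) than in the control libraries (40.3 to 57.7 and 25.3 to 27.2 CPM). TAF1 was lower with the NC ASO (50.02 to 58.0 against 61.6 to 68.8 CPM), and TAF2, TAF4 and TAF6 overlapped. In the targeting libraries TAF2 (112 to 157 CPM) lay above the control range (91.8 to 108 CPM) and TAF6 (65.8 to 86.5 CPM) below it (88.1 to 91.5 CPM). The other members overlapped it there. How often other genes overlapped was not counted. The sets differ in more than the ASO, and which of these differences the level followed cannot be told apart.

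Within 50 kb of TAF7, 1 of 11 other genes was tested in the LINC00662 ASO comparison. That gene, PCDHGA1, a protocadherin of the gamma cluster upstream of TAF7, averaged 0.181 CPM against 0.647 CPM with the NC ASO (log2 fold change -1.76, SE 0.69, edgeR adjusted p = 0.0332). It did not pass with the SETD5-AS1 ASO (-1.06, adjusted p = 0.136) or the LINC00641 ASO (-1.56, adjusted p = 0.123). The pseudogene AC005618.1, which overlaps TAF7 on the same strand, averaged 0 CPM in each of these groups.

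Genes with the pattern most like that of TAF7 were found by the root mean square difference of log2 fold changes over the 8 human comparisons, among 8551 genes at 10 CPM or more in each. The nearest were HOXB7 (0.0996), RNF113A (0.108), BECN1 (0.118), LRRC41 (0.12) and GRPEL2 (0.121), where the median over all genes was 0.827. For TAF3 they were ARPC5L (0.13), MED17 (0.135), DNAJB11 (0.165), TMED2 (0.183) and C2orf47 (0.195), where the median was 0.703. MED17 is a subunit of Mediator, the coactivator that works with TFIID. The comparisons share libraries, so these distances describe the tables only.

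The rest of the transcription machinery was counted in 6 lists. In the mouse lines no gene of the lists was called. In HCT116, TAF9B, the paralog of TAF9, was higher with the TAF3 reader (10.01 to 17.7 CPM in group means, log2 fold change 0.82) and TBPL2 lower (-1.27, from 1.20 to 0.493 CPM), both among 9 tested other TFIID subunits and paralogs. Of the 11 tested RNA polymerase II subunits 0 were called there, with a median log2 fold change of 0.35 against -0.00669 over all genes. With the CBX7 reader, TAF7L (2.16, from 0.803 to 3.75 CPM) and TAF13 (0.90) were higher among 8 tested subunits and paralogs. GTF2A2 (0.98, from 1.79 to 3.53 CPM), the small TFIIA subunit, rose as well, and like TAF7L it was at a low level. Of all genes tested, 6.62% were called in HCT116, 11.1% in NIH3T3, 1.03% in Neuro-2a and 7.66% with the CBX7 reader. SETD1B, an H3K4 methyltransferase, was also higher (log2 fold change 1.73, from 31.8 to 105 CPM).

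With the SETD5-AS1, LINC00641 and LINC00662 ASOs, 11.5, 11.5 and 13.3% of all genes tested were called lower and 12.9, 10.99 and 11.6% higher, and the counts of the lists are to be read against these shares. Among 8 tested other TFIID subunits and paralogs, 2, 3 and 4 were lower with the SETD5-AS1, LINC00641 and LINC00662 ASOs and 0 were higher, with medians of -0.67, -0.62 and -0.68. TBPL1, a TBP-related factor, had log2 fold changes of -1.64, -1.48 and -1.50, and TAF13 had -1.43, -1.76 and -1.39. TAF4B, the paralog of TAF4, was lower with the LINC00662 ASO (-1.44) and also lower than with the SETD5-AS1 ASO (-1.03) and the LINC00641 ASO (-1.51).

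Of the 8 genes of the Pol I and Pol III machinery and BTAF1, 4 were lower with each ASO and 0 higher, with medians of -0.67, -0.72 and -0.72. They included TAF1A and TAF1C, TBP's partners in the Pol I factor SL1, at -1.19 and -1.12 with the SETD5-AS1 ASO. Among 11 RNA polymerase II subunits, 4, 3 and 2 were lower and 0 higher, and the 2 with the LINC00662 ASO are near the share of all genes. POLR2A, the catalytic subunit, was at 1030 CPM with the NC ASO, 423 CPM with the SETD5-AS1 ASO (-1.35) and 499 CPM with the LINC00641 ASO (-1.10). The other general transcription factors were mixed, with 1 higher and 1 lower, 2 higher and 1 lower, and 0 higher and 1 lower of 16. MNAT1, a subunit of the TFIIH kinase, rose by 1.30 and 1.47 with the first 2 ASOs, and GTF2E1, of TFIIE, fell with the LINC00662 ASO (-2.05).

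SAGA, which shares TAF10 with TFIID, had 1 higher of 15 with the SETD5-AS1 ASO, 2 higher with the LINC00641 ASO, while the LINC00662 ASO gave 1 higher and 2 lower. TRRAP, its largest subunit, was higher with each (1.13, 1.11 and 1.35), and SUPT20H was lower with the LINC00662 ASO (-2.18). Of the 10 tested members of H3K4 methyltransferase complexes, 1, WDR5, was higher with each ASO (0.98, 0.93 and 1.27) and 0 lower. The medians of all genes stand above for comparison, and no set test was run.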

How the data were processed

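The authors trimmed reads with fastp 0.23.1, aligned them with HISAT2 2.1.0 to hg19 or mm10 and counted them per gene with featureCounts 2.0.1 on GENCODE annotation, and deposited raw counts per gene and library, not normalized. Whether counting used strand is not given in the sources used here. The 10 members and the lists of related genes were chosen with earlier results of these data known. All 57820 human or 55401 mouse genes entered each fit. Genes whose summed count exceeded 3 per library were kept, TMM factors were computed, and 2 groups at a time were compared with edgeR 4.0.16 (R 4.3.3, quasi-likelihood F-test, Benjamini-Hochberg adjustment over all genes tested). The interaction used the 12 mouse libraries. Calls needed an adjusted p below 0.05 and a change of at least 0.75 on the log2 scale. SE is the log2 fold change divided by the square root of F. CPM values carry TMM factors over each table.

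All 10 members were named, at most 4 called genes per list and comparison by size of log2 fold change, genes within 50 kb of TAF7, and the 5 genes nearest in pattern to TAF7 and TAF3. Alternatives were DESeq2, RLE factors, library size alone, no filter, filterByExpr, the replicate number as block, each library left out, TAF3 removed, and the ASO groups in one fit. On simulated data the fit called 74 to 96% of genes changed 2-fold over the 10 comparisons of 2 groups (lowest in Neuro-2a, 16632 genes) and 99 to 100% of those changed 4-fold. The changed genes were drawn only among those of higher mean count, so low-count genes were not covered, and no simulated library stood apart from its group. Between 2 libraries of a group the chi-square per gene was 2.41 to 37.4 over 34 pairs, so none was counted as a copy. The HEK293T Chrom-seq table was not used here because it stacks 2 blocks and the lower one carries no gene identifiers. Reader bases were aligned with scores of 1, -1 and -4 per match, mismatch and gap base.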

Additional observations from a re-analysis of the deposited data

Results flagged for a closer look

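The change of Taf3 counts with the TAF3 reader differed between the mouse lines. The log2 difference was -2.80 (Neuro-2a minus NIH3T3, SE 0.13, edgeR interaction test over 12 libraries, adjusted p = 1.13e-09). The log2 fold change was 6.04 in NIH3T3 and 3.25 in Neuro-2a. These counts hold reads of the transfected reader mRNA and of the cell's own Taf3 as one number. The excess over control was 98.4 to 98.6% of them in NIH3T3 reader libraries and 88.3 to 90.1% in Neuro-2a. The difference is therefore no measure of the cell's own Taf3.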

How the results depend on the processing

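Of 145 recomputed member counts 136 stayed within 1.5 times the reported count, and no direction of the 46 member results past an adjusted p of 0.05 reversed in any of 588 refits; 35 of the 46 kept that adjusted p in every alternative run and 11 lost it in one or more. With Taf3 removed before scaling, 0 members were called in NIH3T3, Neuro-2a and the mouse interaction, since the called gene was the one removed. For the LINC00662 ASO against the LINC00641 ASO, 1 member was called with library size alone, and 0 to 1 over the fits without one library, through TAF3 (0.75 to 1.05 where called; without LINC00641 ASO replicate 2, LINC00662 ASO replicate 2 or LINC00662 ASO replicate 3). For the LINC00662 ASO against the SETD5-AS1 ASO the range was 0 to 1, again through TAF3 (0.80 without LINC00662 ASO replicate 2 and 0.84 without SETD5-AS1 ASO replicate 1). Over all genes, 176 were called in Neuro-2a, 402 with DESeq2, 516 with no filter on low counts, 620 without TAF3 replicate 1 and 41 to 106 without any other single library. For the SETD5-AS1 ASO against the LINC00641 ASO, 316 genes were called, and 177 or 198 without LINC00641 ASO replicate 2 or 3.

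Same-numbered libraries had correlations of -0.06 to 0.16 across genes, in no comparison all over 0.1, and 12 of 27 were closest to their own number, so the numbers were not treated as pairs. As a hint from the data, all 3 were closest to their own number in Neuro-2a (at most 0.03) and in the LINC00662 ASO against the SETD5-AS1 ASO (0.07 to 0.09). With the replicate block, members called were 0 in HCT116, 1 in NIH3T3, 1 in Neuro-2a, 0 with CBX7, 3, 3 and 1 with the SETD5-AS1, LINC00641 and LINC00662 ASOs, 0 between ASOs and 1 in the interaction, as without it; the adjusted p of Taf4 in NIH3T3 (0.0519), TAF1 with the LINC00641 ASO (0.107) and TAF3 with the LINC00662 ASO (0.0751) then exceeded 0.05. The planned HEK293T TAF3 and CBX7 Chrom-seq results and the human interaction were not run.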
